A study of Mus musculus with 7 samples.

Results

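Death receptors are surface proteins of the tumour necrosis factor receptor family whose ligation can end in the death of the cell, and necroptosis is a lytic form of death that the same receptors can start when caspase-8 is inactive. The set described here holds 10 genes of these routes, all 10 present among the 40873 genes analysed: the receptor genes Fas, Tnfrsf1a, Tnfrsf1b and Tnfrsf10b, the ligand gene Fasl, the caspase-8 gene Casp8 and its inhibitor gene Cflar, and the necroptosis genes Ripk1, Ripk3 and Mlkl. They were picked by symbol as a family, with the level of Fas in these same libraries in view, because Fas was higher in every red blood cell library. Differences between the groups are therefore a description of the 10 genes, and no test result is used to support them.

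The libraries were made from poly(A) RNA of choroid plexus, the secretory epithelium and stroma that hang in the brain ventricles and make cerebrospinal fluid. Lateral ventricle tissue of wild-type CD-1 embryos, an outbred mouse stock, was collected and pooled on embryonic day E15.5, 24 h after exposure to washed red blood cells from an E14.5 donor litter (3 libraries) or to saline alone (4 libraries). All 7 libraries are labelled biological replicates of batch 1, and neither the embryos nor the litters per pool are counted in the sources used here, so the spread between libraries may be technical in part. Total counts ran from 4393860 to 8386928 per library. Summed CPM (counts scaled to TMM library size) of 12 choroid plexus epithelium markers such as Ttr and Otx2 was 21389 to 22965 after red blood cells against 21972 to 27044 after saline. Ttr alone had means of 11259 and 12027 CPM. Only 1 of the 12 (Car12) had a log2 fold change above 0. Aqp1, Kcne2, Slc4a5 and Sostdc1 had every red blood cell library below every saline library, as did 4.86% of all genes tested. The log2 fold change of Slc4a5 was -0.39 ± 0.07 (SE; adjusted p in edgeR = 0.0634). Summed CPM of 14 macrophage markers was 433 to 650.5 after red blood cells and 266 to 353.5 after saline. All 14 had a log2 fold change above 0. In edgeR, Adgre1 and Marco passed an adjusted p of 0.05 (0.0286 for each), as did 0.0605% of all genes tested. Marco had only 3, 2, 1 and 1 counts in saline 1 to 4, all below the count filter's minimum of 1.49 CPM. It was thus tested through the group in which it was higher, so nothing is read from its call. No tested marker of the other cell types passed. For 12 neutrophil and monocyte markers, with Ly6g at 0, it was 9.36, 112 and 17.9 in red blood cells 1 to 3 and 5.75 to 22.1 after saline. Only red blood cells 2 thus lay above the saline range. For 10 endothelial markers it was 932 to 1404 after red blood cells and 1120 to 1187 after saline, and for 8 mesenchymal markers 1571 to 2926 and 1873 to 2004. In both lists only red blood cells 3 lay above the saline range. For 10 erythroid markers it was 2247 to 2826 and 2200 to 3278. For 14 lymphocyte and natural killer cell markers it was 1.35 to 2.53 and 1.33 to 2.08, with Cd8a, Nkg7, Gzmb and Ncr1 at 0 in all 7 libraries.

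Fas, bound by Fas ligand, recruits the adaptor FADD through death domains, and FADD recruits caspase-8 through death effector domains. TNF receptor 1, the product of Tnfrsf1a, first assembles a complex around the kinase RIPK1 that drives NF-kB signalling, and can pass to a second complex that activates caspase-8. The product of Cflar, c-FLIP, resembles caspase-8 but lacks its catalytic activity and holds it in check, while RIPK1 can engage RIPK3, the kinase that phosphorylates MLKL, which then breaches the plasma membrane.

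Promoter sequences of 9 of the 10 genes (all but Tnfrsf10b), 10 start sites in all, were found in the RefSeq table of GRCm38.p6. The 250 bases before each start site were searched on both strands for TTCNNNGAA, the palindromic core bound by STAT factors, for 2 copies of GAAA with a spacer of 2 bases, a core of interferon-stimulated response elements, and for the kB consensus. Among 32851 promoters of that length in the table, 7.02% held TTCNNNGAA, 2.98% held the GAAA repeat and 7.25% held the kB consensus. Of the 10 windows, 4 held a match: those of Fas, Tnfrsf1a, Tnfrsf1b and the second start site of Ripk1. Shown here are the windows of Fas and Mlkl, the members with the largest log2 fold changes, of Tnfrsf1b, which held matches to both interferon-related cores, and of Ripk1, which held 2 matches and had a log2 fold change near 0. They lie on GRCm38.p6 at chr19:34290409-34290658 (Fas, plus strand), chr8:111338206-111338455 (Mlkl, minus strand), chr4:145246871-145247120 (Tnfrsf1b, minus strand) and chr13:34002624-34002873 (Ripk1, plus strand). Capitals mark the matches.
Fas: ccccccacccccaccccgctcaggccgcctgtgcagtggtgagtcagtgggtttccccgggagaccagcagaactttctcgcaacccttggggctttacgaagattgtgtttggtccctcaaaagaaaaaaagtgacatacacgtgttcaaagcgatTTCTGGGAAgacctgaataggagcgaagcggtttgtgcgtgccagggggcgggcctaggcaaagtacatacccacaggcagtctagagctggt
Mlkl: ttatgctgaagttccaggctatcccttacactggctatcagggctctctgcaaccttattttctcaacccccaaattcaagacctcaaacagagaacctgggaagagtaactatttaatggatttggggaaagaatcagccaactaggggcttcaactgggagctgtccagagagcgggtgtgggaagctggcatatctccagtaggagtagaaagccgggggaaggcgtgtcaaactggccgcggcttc
Tnfrsf1b: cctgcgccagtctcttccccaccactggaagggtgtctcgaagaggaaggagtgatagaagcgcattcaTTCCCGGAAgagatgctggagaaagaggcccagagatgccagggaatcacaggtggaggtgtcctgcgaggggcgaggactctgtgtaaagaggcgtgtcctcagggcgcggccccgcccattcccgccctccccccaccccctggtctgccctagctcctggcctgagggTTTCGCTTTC
Ripk1: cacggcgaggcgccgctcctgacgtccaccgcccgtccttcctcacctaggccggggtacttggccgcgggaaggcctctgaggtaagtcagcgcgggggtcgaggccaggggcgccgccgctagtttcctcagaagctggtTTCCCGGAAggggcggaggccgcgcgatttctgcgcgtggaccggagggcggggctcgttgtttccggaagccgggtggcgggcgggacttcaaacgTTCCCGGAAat
The Fas match, TTCTGGGAA, lies 93 to 85 bases before the start site. The Tnfrsf1b window holds TTCCCGGAA at 181 to 173 bases and, on the other strand, the GAAA repeat at 10 to 1 bases before its start, and the Ripk1 window holds TTCCCGGAA at 108 to 100 and at 11 to 3 bases. The 3 motifs had no match in the windows of Mlkl, Casp8, Cflar, Ripk3, Fasl and the first start site of Ripk1, and a match in these letters is no evidence of binding.

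Fas was the member with the largest difference. It had 69, 83 and 28 counts in red blood cell libraries 1 to 3 and 13, 17, 20 and 9 counts in saline libraries 1 to 4, or 8.61, 12.5 and 5.07 CPM against 1.92, 2.72, 2.39 and 2.08 CPM. Every red blood cell library lay above every saline library, which is the pattern Fas was picked for, and library 2 was the highest and library 3 the lowest of the treated libraries. The means were 8.71 ± 3.70 CPM (SD, n = 3) and 2.28 ± 0.353 CPM (SD, n = 4), a 3.81-fold difference with a log2 fold change of 1.93 ± 0.31 (SE of the edgeR fit). Left out 1 at a time, the libraries moved this log2 fold change between 1.59 (without red blood cells 2) and 2.20 (without red blood cells 3). On GRCm39 Fas spans 34267926 to 34305175 of chromosome 19 (plus strand). In bulk tissue, a higher level per cell and a larger share of cells that express the gene cannot be told apart, here and for every gene below.

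Its ligand was not detected. Fasl, which cytotoxic lymphocytes are known to express (chromosome 1, 161608260 to 161616064, minus strand), had 0 counts in all 7 libraries. Over the 45909194 counts of all libraries together, a count of 0 allows up to 0.0653 CPM, and in single libraries 0.358 to 0.683 CPM, limits that cover counting error only. The lymphocyte markers given above were likewise at or near 0. At this depth Fasl was below detection in both groups, and no difference between them can be given.

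The receptors for TNF were expressed at very different levels. Tnfrsf1a (chromosome 6, 125326686 to 125339446, plus strand) had 91.8, 109 and 79.6 CPM after red blood cells and 75.7, 75.7, 66.7 and 77.6 CPM after saline. The groups did not overlap, but red blood cells 3 stood only slightly above saline 4. The means of 93.6 ± 14.9 and 73.9 ± 4.92 CPM (SD, n = 3 and n = 4) gave a log2 fold change of 0.34 ± 0.10 (SE), and 0.22 without red blood cells 2.

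Tnfrsf1b, the gene of TNF receptor 2, which lacks a death domain (chromosome 4, 144938938 to 144973453, minus strand), had 10.9, 21.9 and 12.1 CPM after red blood cells and 11.8, 9.11, 7.77 and 10.2 CPM after saline. Red blood cells 2 stood well above the saline libraries, red blood cells 3 just above saline 1, and red blood cells 1 below saline 1, so the groups overlapped. Its log2 fold change of 0.63 ± 0.25 (SE) dropped to 0.24 without red blood cells 2. Tnfrsf10b, the mouse receptor of the ligand TRAIL (chromosome 14, 70004921 to 70021860, plus strand), had 38.2, 36.8 and 28.0 CPM after red blood cells and 26.7, 27.3, 23.4 and 33.7 CPM after saline. The groups overlapped because saline 4 exceeded red blood cells 3, and the log2 fold change was 0.32 ± 0.14 (SE).

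**Figure D1:**
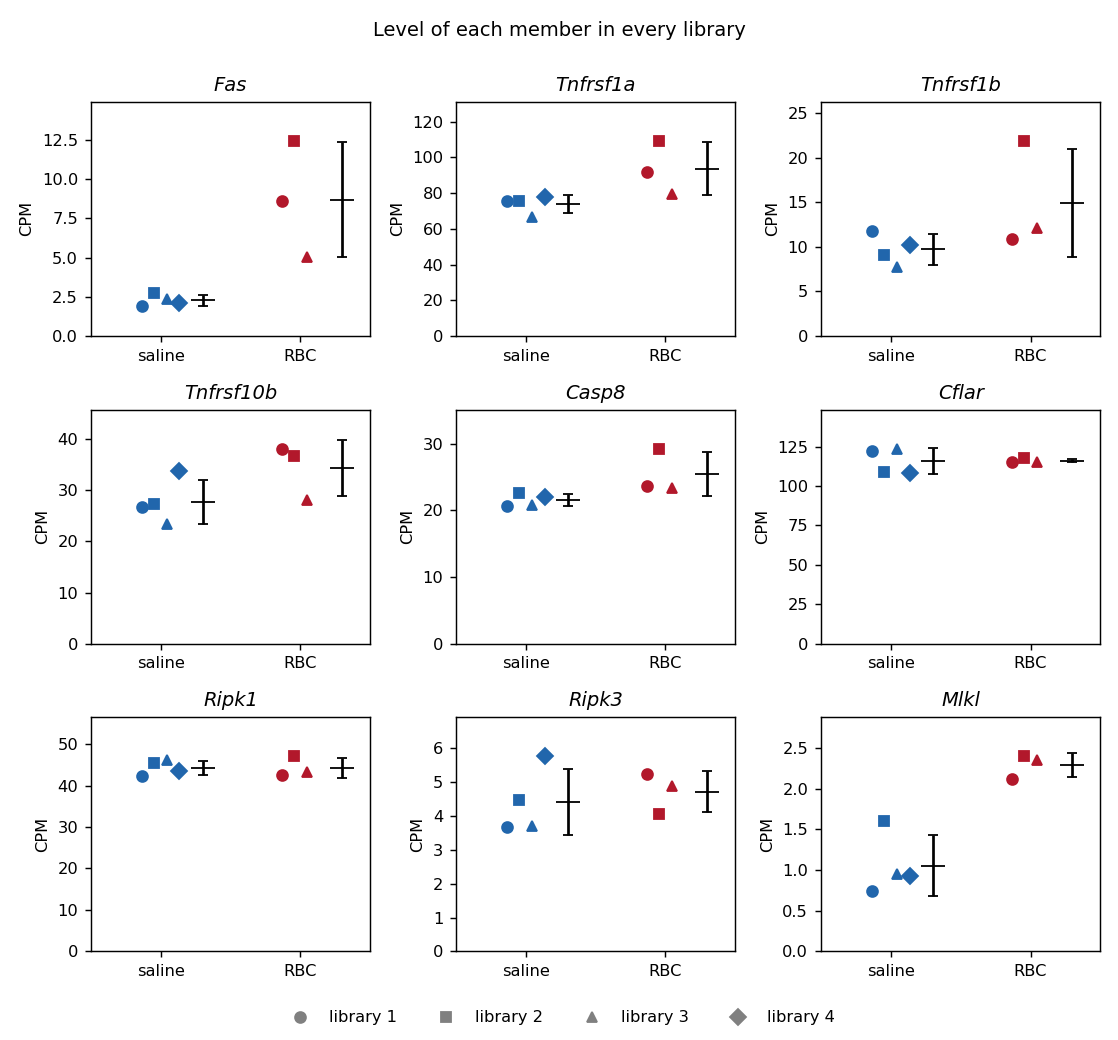
Level of 9 members in every library, in CPM on a linear axis from 0 in each panel, with saline in blue and red blood cells (RBC) in red. Black bars are the mean ± SD (n = 4 and n = 3), and marker shapes are library numbers, which the labels do not give as pairs across groups. Fas, Tnfrsf1a, Casp8 and Mlkl have every red blood cell library above every saline library, while Cflar and Ripk1 have the groups on top of each other; Fasl, at 0 in all libraries, is not drawn.

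Casp8 and Cflar, the initiator caspase and its inhibitor, are neighbours on chromosome 1 of GRCm39. Cflar spans 58750353 to 58798043 and Casp8 58834398 to 58886662, both on the plus strand, 36.4 kb apart with 1 predicted gene between them in the table. Casp8 had 23.7, 29.3 and 23.3 CPM after red blood cells and 20.7, 22.5, 20.8 and 21.9 CPM after saline. The groups did not overlap, by a margin of under 1 CPM, and the log2 fold change was 0.25 ± 0.12 (SE), or 0.13 without red blood cells 2. Cflar had 116, 117 and 115 CPM after red blood cells against 122, 109, 124 and 109 CPM after saline. All 3 red blood cell libraries lay inside the saline range, with a log2 fold change of 0.00 ± 0.07 (SE). Per kilobase of exon length, Cflar exceeded Casp8 by 1.60, 1.32 and 1.63 times in red blood cells 1 to 3 and by 1.94, 1.59, 1.96 and 1.63 times in saline 1 to 4. These ratios overlapped between the groups, with red blood cells 2 the lowest of the 7 libraries.

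The groups overlapped for the necroptosis kinases and did not for the executioner. Ripk1 (chromosome 13, 34181072 to 34219153, plus strand) had 42.7, 47.1 and 43.2 CPM after red blood cells and 42.4, 45.4, 46.1 and 43.6 CPM after saline. Ripk3 (chromosome 14, 56022452 to 56026314, minus strand) had 42, 27 and 27 counts, or 5.24, 4.05 and 4.88 CPM, against 25, 28, 31 and 25 counts, or 3.69, 4.47, 3.70 and 5.77 CPM. These genes had log2 fold changes of 0.00 ± 0.08 and 0.12 ± 0.25 (SE).

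Mlkl, the pore-forming effector of necroptosis (chromosome 8, 112037879 to 112065081, minus strand), had the second largest difference on few counts. It had 17, 16 and 13 counts after red blood cells against 5, 10, 8 and 4 counts after saline, or 2.12, 2.40 and 2.35 CPM against 0.738, 1.60, 0.956 and 0.924 CPM. The groups did not overlap, and saline 2 was the nearest saline library. The log2 fold change was 1.10 ± 0.36 (SE), between 0.96 and 1.37 with 1 library left out in turn. Mlkl cleared the minimum of 1.49 CPM of the count filter in 3 of 3 red blood cell libraries and in 1 of 4 saline libraries, so it was tested through the group in which it was higher.

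Exons of Ripk1 share 241 bases with Serpinb6a on the opposite strand and exons of Ripk3 share 169 bases with the predicted gene Gm32092, also on the opposite strand. No source used here gives the strand setting of the counting, so part of the reads of these pairs may be assigned to either gene. Over all libraries Ripk1 had 2041 counts and Serpinb6a 2010, and Ripk3 had 205 and Gm32092 had 35.

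**Figure D2:**
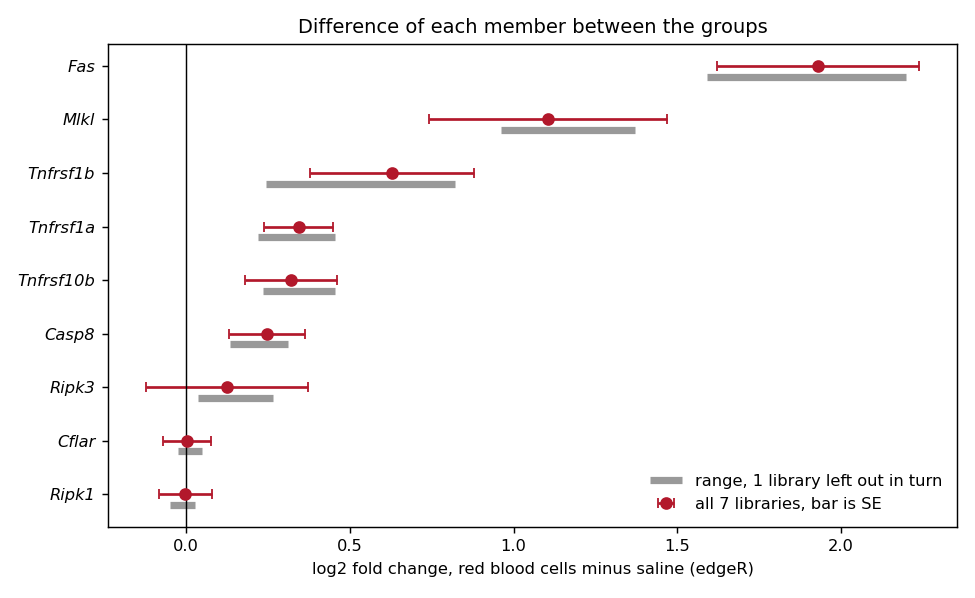
Log2 fold change of 9 members, red blood cells minus saline, from the edgeR fit of all genes, with bars of 1 SE (red, 7 libraries) and the range of the value with 1 library left out in turn (grey). Fas at 1.93 and Mlkl at 1.10 stand to the right of the other 7 members, which lie between 0.00 and 0.63, and the grey range of Tnfrsf1b reaches down to 0.24.

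Taken over the 9 members that could be tested, 8 had a log2 fold change above 0 and 1 (Ripk1) just below it, with a median of 0.32, where the median of all 14869 genes tested was 0.00. Without Fas and Mlkl the median was 0.25. In 4 of the 9 every red blood cell library lay above every saline library, and in 0 below, where 4.8% of all genes tested lay wholly above and 4.86% wholly below. In the edgeR quasi-likelihood test, adjusted by Benjamini-Hochberg over all genes, 0 of the 9 members passed 0.05, where 0.0605% of all genes did. At an unadjusted p under 0.05 there were 5 members, where 9.52% of all genes were. DESeq2 called 1 member, Fas (1.62% of genes called), limma-voom 0 (0.0605%), and limma-voom with sample weights 1, Fas (0.323%). These counts use the values on which Fas was picked, and Mlkl was tested through its higher group, so nothing is read from them.

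Library 2 of the red blood cell group was the highest of the 3 treated libraries for 7 of the 9 members, all but Tnfrsf10b and Ripk3, where 33.7% of all genes tested had it highest. The summed level of 28 interferon response genes stood in the same order as Fas, with 1264, 3496 and 798 CPM in red blood cells 1 to 3, and was 281 to 396 CPM in the saline libraries. Tnfrsf1a, Casp8 and Cflar had this order too. The macrophage markers summed to 433, 650.5 and 582 CPM in red blood cells 1 to 3, the order in which Tnfrsf1b, Ripk1 and Mlkl stood. Tnfrsf10b and Ripk3 had neither order. The neutrophil and monocyte markers summed to 9.36, 112 and 17.9 CPM in red blood cells 1 to 3, the same order as the macrophage markers. The part of any of these sums in the levels of Fas, Mlkl or Casp8 was not tested.

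In the saline libraries the members covered a wide span of levels. The saline values of Fas took part in its choice, so its place among them is a description. Per kilobase of exon length, Tnfrsf1a came first with 34.3 ± 2.28 CPM per kb (SD, n = 4), higher than 87.6% of the genes tested. Cflar followed with 12.6 ± 0.895 CPM per kb, Tnfrsf10b with 8.74 ± 1.35 and Casp8 with 7.09 ± 0.298. Ripk1 (2.68 ± 0.102), Ripk3 (2.24 ± 0.498) and Tnfrsf1b (1.97 ± 0.347) formed a lower step, and Fas with 0.929 ± 0.144 CPM per kb and Mlkl with 0.359 ± 0.128 CPM per kb came last. Fas was above 11.2% and Mlkl above 3.08% of the genes tested. Of the 8 neighbouring pairs in this order, 5 had ranges that did not overlap. The ranges of Tnfrsf10b and Casp8, of Ripk1 and Ripk3, and of Ripk3 and Tnfrsf1b did overlap, so their order is not resolved. The exon lengths in the table, which join all annotated transcripts, are 16571 bases for Ripk1 and 9210 bases for Cflar against 1935 to 4926 bases for the others, so the per-length levels of Ripk1 and Cflar are lower than a shorter transcript would give.

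By its mean, Fas stood in the fifth place of this order after red blood cells, and in the eighth after saline. The mean after red blood cells was 3.55 ± 1.51 CPM per kb (SD, n = 3), with a range of 2.07 to 5.08. This range overlapped those of Tnfrsf1b (2.20 to 4.45), Ripk1 (2.57 to 2.84) and Ripk3 (2.06 to 2.67). The place of Fas among them after red blood cells is thus not resolved. Tnfrsf1a remained the first, at 43.4 ± 6.91 CPM per kb, and Mlkl the last, at 0.781 ± 0.0510 CPM per kb. The ratio of Tnfrsf1a to Fas per kilobase was 12.1, 9.97 and 17.9 in red blood cells 1 to 3 and 44.9, 31.7, 31.7 and 42.4 in saline 1 to 4.

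**Figure D3:**
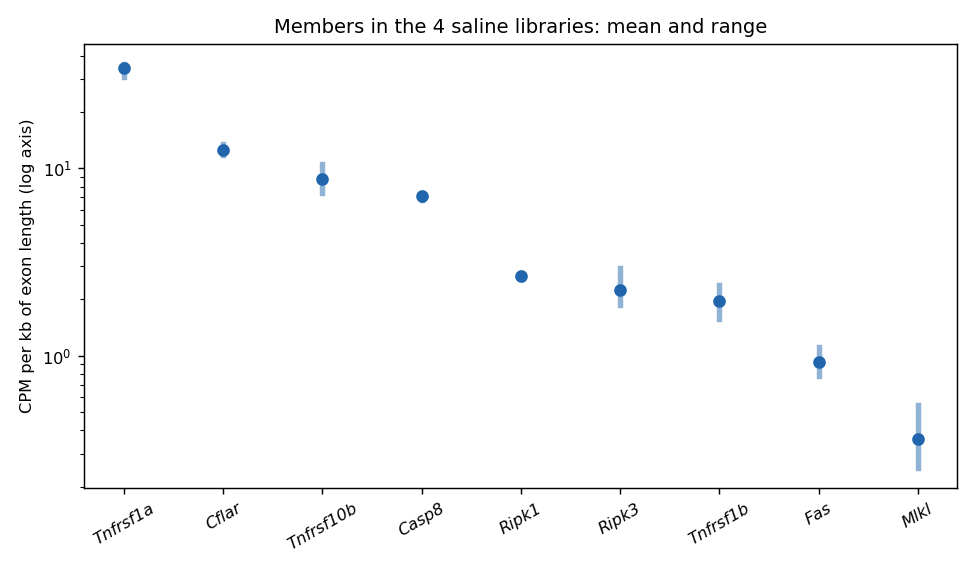
Level of 9 members in the saline libraries in CPM per kilobase of exon length on a log axis, ordered by the mean (point), with the range over 4 libraries (bar). Tnfrsf1a at 34.3 stands highest, and Fas at 0.929 and Mlkl at 0.359 stand lowest.

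Among 21 other genes of the death receptor route, from adaptors to executioner caspases, 17 could be tested, and 16 had a log2 fold change above 0 and 1 below (median 0.17, where all genes tested had 0.00). None of the 17 passed the edgeR threshold over all genes (0 higher, 0 lower), with 5 below an unadjusted p of 0.05, where 9.52% of all genes tested were. DESeq2 called 2 of them, Birc3 and Tnfsf10, where it called 1.62% of all genes, and limma-voom called 0. Birc3, which encodes the ubiquitin ligase cIAP2 that holds TNF receptor signalling on the NF-kB branch, had 11.3 ± 4.52 CPM after red blood cells against 5.14 ± 0.461 CPM after saline (SD, n = 3 and n = 4). Its log2 fold change was 1.13 ± 0.25 (SE; adjusted p in edgeR = 0.134), or 0.76 without red blood cells 2. All 3 red blood cell libraries lay above all 4 saline libraries. Traf3, an adaptor that restrains the non-canonical NF-kB branch, had 130 ± 10.7 and 108 ± 3.23 CPM (log2 fold change 0.28 ± 0.07, edgeR adjusted p = 0.172). Xiap, an inhibitor of the executioner caspases, had 197 ± 4.87 and 185 ± 16.9 CPM (log2 fold change 0.09 ± 0.08, edgeR adjusted p = 0.798). Tnfsf10, the gene of the ligand TRAIL, was named after its values were seen. It had 52, 98 and 25 counts after red blood cells against 14, 7, 16 and 7 counts after saline (log2 fold change 2.33 ± 0.41, edgeR adjusted p = 0.0795), and the log2 fold change was 1.70 without red blood cells 2. Tnf, the ligand of both TNF receptors and likewise named after its values were seen, stayed below the count filter with 4, 12 and 3 counts after red blood cells against 1, 0, 1 and 1 counts after saline. Traf1, also below the filter and named after its values were seen, had 9, 4 and 3 counts against 9, 9, 10 and 7. In CPM it lay wholly lower, at 1.12, 0.600 and 0.543 against 1.33, 1.44, 1.19 and 1.62. For Lta and Faim2, the remaining genes of this list below the filter, the groups overlapped.

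Of 23 further regulators of RIPK1 and necroptosis, 22 could be tested, 14 with a log2 fold change above 0 and 8 below it (median 0.07). None of them passed in edgeR, and DESeq2 and limma-voom called 0. In edgeR 2 of the 22 were below an unadjusted p of 0.05, near the 9.52% of all genes tested. Both were higher (Rnf31 and Tnfaip3, named after their values were seen). Rnf31, the catalytic subunit of the linear ubiquitin ligase, had a log2 fold change of 0.46 ± 0.12 (SE; adjusted p in edgeR = 0.147) and Tnfaip3, the ubiquitin-editing brake A20, 1.19 ± 0.33 (SE; adjusted p in edgeR = 0.196). With 1 library left out in turn, the log2 fold change of Tnfaip3 ran from 0.65 to 1.48. Ikbke, a kinase that can phosphorylate RIPK1, had 20.95 ± 11.3 CPM after red blood cells against 13.1 ± 2.52 CPM after saline (SD, n = 3 and n = 4). Its log2 fold change of 0.69 ± 0.34 (SE; adjusted p in edgeR = 0.584) was 0.15 without red blood cells 2. Tnip1, a partner of A20, had 0.57 ± 0.26 (edgeR adjusted p = 0.556), and 0.20 without red blood cells 2. The kinase gene Mapkapk2 (0.08 ± 0.09) and the adaptor gene Tab2 (-0.02 ± 0.06), the most abundant of this list, had edgeR adjusted p of 0.870 and 0.950. Zbp1, a nucleic acid sensor that can engage RIPK3, fell below the count filter with 6, 48 and 2 counts after red blood cells against 0, 0, 0 and 3 counts after saline, and it too was named after its values were seen.

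The mitochondrial route of apoptosis was described in the same way. Of 20 BCL-2 family and apoptosome genes 18 could be tested, with 11 above 0 and 7 below it (median 0.04). None of them passed in edgeR, and DESeq2 and limma-voom called 0. In edgeR 4 were below an unadjusted p of 0.05, all higher, where 9.52% of all genes tested were below it. Mcl1, an anti-apoptotic member, had 201 ± 9.78 CPM after red blood cells against 177 ± 10.0 CPM after saline (log2 fold change 0.19 ± 0.07, edgeR adjusted p = 0.322), and Bcl2 137 ± 12.6 and 144 ± 8.84 CPM (-0.07 ± 0.08, edgeR adjusted p = 0.875). Bbc3, which encodes the pro-apoptotic PUMA, had a log2 fold change of 0.63 ± 0.19 (edgeR adjusted p = 0.235), and Apaf1, the scaffold of the apoptosome, 0.42 ± 0.12 (edgeR adjusted p = 0.194). Whether the 3 lists differ from each other was not tested.

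Of the 28 interferon response genes 27 could be tested, and all 27 of these had a log2 fold change above 0, with a median of 2.65. None of them passed in edgeR, with 26 below an unadjusted p of 0.05 (9.52% of all genes tested), and limma-voom called 1 (0.0605% of all genes). DESeq2, which also tested Mx1, called 25 of the 28 (1.62% of all genes). Some of the 27 were kept by the count filter through the group in which they were higher. Iigp1 had 0.462 to 1.18 CPM after saline, below the filter's minimum of 1.49 CPM, and Ifit1 cleared it in saline 4 alone (1.85 CPM). The direction count, the median and the counts in edgeR and limma-voom are therefore partly set by the filter. B2m, the beta-2-microglobulin gene, had a log2 fold change of 2.05 ± 0.39 (SE; adjusted p in edgeR = 0.167), and Bst2, an antiviral membrane tether, 3.03 ± 0.44 (edgeR adjusted p = 0.125). Oasl2 (5.22 ± 1.36, edgeR adjusted p = 0.281) and Ifit1 (5.19 ± 1.21, edgeR adjusted p = 0.232) had 6 to 30 and 1 to 8 counts per saline library. Without red blood cells 2 the log2 fold changes were 3.35 for Oasl2, 3.82 for Ifit1 and 2.39 for Bst2.

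The genes whose pattern over the 7 libraries was most like that of Fas were Lgals3bp, Gbp7, Nfkbie, Arhgdib and A2m. Likeness was the root mean square difference, over the 7 libraries, of log2 CPM (prior count 2) minus the saline mean of each gene, among 11213 genes with a mean count of at least 50. It was 0.171 log2 units for Lgals3bp, 0.218 for Gbp7, 0.255 for Nfkbie, 0.256 for Arhgdib and 0.264 for A2m. On this scale Fas stood at 1.80, 2.32 and 1.07 in red blood cells 1 to 3 and between -0.20 and 0.24 in the saline libraries. Lgals3bp, the closest gene, stood at 1.49, 2.47 and 1.15 and between -0.05 and 0.03. Lgals3bp encodes a secreted galectin-3-binding glycoprotein, Gbp7 a guanylate-binding protein, Nfkbie the NF-kB inhibitor IkB-epsilon and A2m a secreted protease inhibitor. Without red blood cells 2, 2 of these 5 genes (Lgals3bp and Gbp7) were among the 5 closest.

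**Figure D4:**
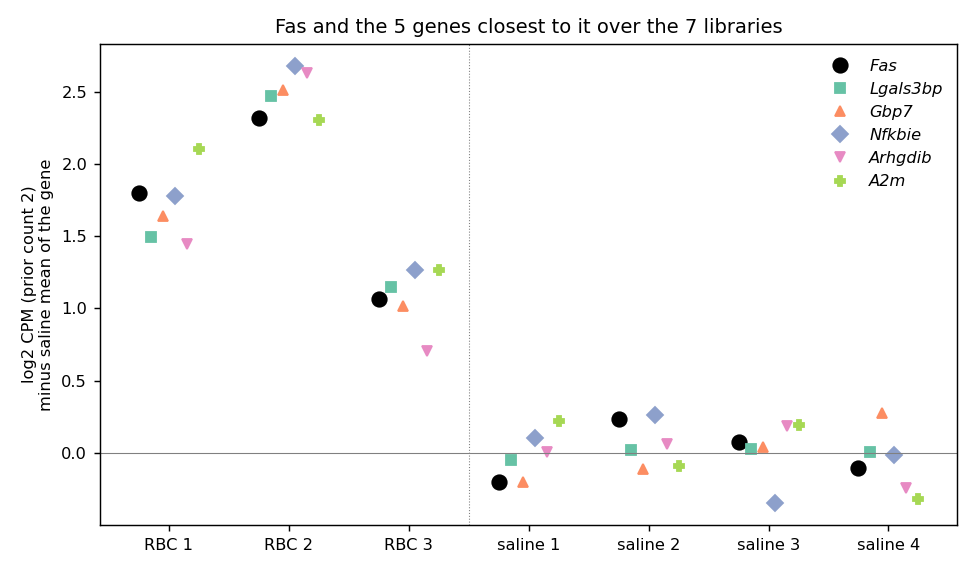
Fas (black) and the 5 genes with the smallest root mean square difference from it, as log2 CPM (prior count 2) minus the saline mean of the gene, in each of the 7 libraries, with genes set side by side within a library. In red blood cells (RBC) 2 the genes reach their highest values, Fas at 2.32 and Lgals3bp at 2.47, and in the saline libraries Fas lies between -0.20 and 0.24.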

How the data were processed

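Poly(A) RNA of pooled choroid plexus was sequenced from directional libraries, per the labels' protocols. Raw read counts were deposited by the authors beside exon lengths and positions of each gene, per the file headers. Tools named in the submitters' processing notes are featureCounts 2.0.6, STAR 2.6.1b and cutadapt 2.5, with the build GRCm39. No source used here gives the annotation, strand or multi-mapping settings. Broken lines of 6 long genes (Huwe1, Mycbp2, Syne1, Ttn, Neb and Dst) were left out, and the unnamed remainder of those lines holds 0.107% of counts.

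Counts were tested with edgeR 4.0.16 under R 4.3.3 (TMM, filterByExpr, robust quasi-likelihood F test, two-sided, no block), which kept 14869 genes, with Benjamini-Hochberg adjustment over all of them. Standard errors derive from the F statistic. The common biological coefficient of variation was 13.7%. A count of 3 is 0.358 to 0.683 CPM per library. Alternatives were DESeq2 1.42.0, limma-voom (limma 3.58.1) with and without sample weights, other normalizations and filters, a fit without robust estimation, a replicate block and libraries left out. The tests were tried on simulated counts. Figures were drawn with matplotlib 3.10.9.

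The members and lists were chosen with earlier results of these data known. Named were all members, from each list up to 4 genes past the threshold or, with none, the 2 most abundant and the 2 with the largest log2 fold change (mean count at least 50), and the 5 genes closest to Fas. Tnfsf10, Tnf, Traf1, Rnf31, Tnfaip3, Zbp1 and the macrophage markers Adgre1 and Marco lie outside this rule and were named after their values were seen. The same holds for Iigp1 and for the epithelium markers Car12, Aqp1, Kcne2, Slc4a5 and Sostdc1.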

Additional observations from a re-analysis of the deposited data

Results flagged for a closer look

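For 29 of the named genes the 4 saline libraries were checked for a library far from the other 3. The check was Dixon's criterion at the 95% level, which chance meets in about 5% of groups. Tnfrsf1a had 66.7 CPM in saline 3, while the other saline libraries had 75.7 to 77.6 CPM. Ikbke had 16.9 CPM in saline 4, while the others had 11.7 to 11.96 CPM. These were 2 of 29 genes checked.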

How the results depend on the processing

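The number of genes past the threshold, 9 in edgeR, was 136 without the count filter, 282 with DESeq2, 48 with limma-voom and sample weights, 16 without robust estimation and 40 without red blood cells 2 and saline 4, and ran from 1 to 283 with 1 library left out in turn (17, 34 and 283 when red blood cells 1, 2 or 3 was dropped, 1 when saline 1, 2 or 3 was dropped, and 5 for saline 4). Members past the threshold, 0 in edgeR, were 1 (Fas) without the count filter, with DESeq2 and with limma-voom and sample weights, and 0 to 2 with 1 library left out (2, Fas and Tnfrsf1a, without red blood cells 3); Fas was picked on this contrast, so these counts support nothing. Members with groups that do not overlap, 4, were 2 with at least 10 counts required in every library, a filter that removes Fas and Mlkl. They were 5 without red blood cells 1, red blood cells 3, saline 1 or saline 4, and 6 without red blood cells 2 and saline 4. Fewer libraries make separation easier. The median member log2 fold change of 0.32 ran from 0.23 to 0.45, and the range of Fas over the 17 alternatives that kept it was 1.57 to 2.20. Cflar and Ripk1 lay within 0.05 of 0 in all 18 alternatives, on either side.

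Called genes of the death receptor list, 0 in edgeR, were 2 without the count filter, 2 with DESeq2 and 0 to 3 with 1 library left out (3 without red blood cells 3), and those of the mitochondrial list 0 to 1 (1 without red blood cells 3). Called interferon genes, 0 in edgeR, were 2 without the count filter, 25 with DESeq2, 1 with limma-voom, 4 with sample weights, 3 without robust estimation, 8 without red blood cells 2 and saline 4, and 0 to 10 with 1 library left out (7 without red blood cells 2 and 10 without red blood cells 3). Bcl2 turned from -0.07 to 0.033 without red blood cells 2 and saline 4. The causes were not tested.

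With the replicate number as a block, 2 genes and 1 interferon gene passed, Fas had a log2 fold change of 1.82, and 0 members passed. Deviations of same-numbered libraries correlated at -0.01, -0.17 and -0.17, and those of differently numbered libraries at -0.21 to 0.26. Correlations this few cannot show whether same-numbered libraries share a litter or a day. Counts of 4 to 20 per saline library limit Fas and Mlkl.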
